A study of Danio rerio with 10 samples.

Results

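Egr and AP-1 genes encode transcription factors whose messages appear within minutes of a stimulus, without new protein synthesis, and are therefore called immediate early genes. The Egr proteins are zinc finger activators that switch on when the kinase Erk acts on serum response factor (Srf) and its partners. AP-1 is a dimer of basic leucine zipper proteins, in which a Jun protein pairs with a Fos, another Jun or an Atf protein, and it answers to Erk, to the stress kinases Jnk and p38 and to tissue injury. The 10 genes described here, *egr1*, *egr2a*, *egr2b*, *egr3*, *fosab*, *fosl1a*, *jun*, *junba*, *junbb* and *atf3*, were taken as the rows whose gene symbol equalled one of these names. All 10 were found once in each of 2 tables, of 22202 genes in fins and 23511 genes in ventricles (25029 in either table and 20684 in both).

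The study set *il11ra* mutant zebrafish, which carry the CRISPR-Cas9 allele bns251 in the gene for the interleukin-11 receptor, against their wild-type siblings. In caudal fins, collected 24 hours after amputation, 3 *il11ra* mutant and 3 wild-type libraries were made, each from 1 animal. In cardiac ventricles, collected 96 hours after cryoinjury (freezing of part of the ventricle wall), 2 *il11ra* mutant and 2 wild-type libraries were made, each from a pool of 2 animals. All animals were adults of 4 to 8 months, every library came from injured tissue, and the fin samples were 2 bone segments of old fin next to the cut, so the measurements compare genotypes after injury and not injured with uninjured tissue. The mutation was present in all cells throughout life, and no transgene or Cre was involved.

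Values are normalized counts, that is, reads on a gene divided by a size factor of the library and rounded. Each tissue had its own size factors, so levels were not compared between fins and ventricles. From gaps among low values, 1 read was worth 0.802 to 1.34 normalized counts in fin libraries, which held an estimated 2963659 to 4699029 reads on genes, and 0.836 to 1.03 in ventricle libraries, which held 12862399 to 14292521. By this estimate fin libraries held fewer reads on genes than ventricle libraries, and mutant fin 1 the fewest. These are reads counted on genes and not reads sequenced. *il11ra*, on chromosome 10, had 3, 6 and 7 normalized counts in mutant fins against 65, 80 and 57 in wild-type fins, and 38 and 23 in mutant ventricles against 107 and 189 in wild-type ventricles, so every library stood on the side of its label. A two-sided exact permutation test reaches no lower than 0.1 with 3 libraries against 3 and 0.333 with 2 against 2, and *il11ra* and *egr1* gave these values in fins and ventricles. Tests across genes were therefore made with limma, which borrows the spread from all genes, on log2(normalized count + 1).

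In mutant fins, 8 of the 10 genes rose at an adjusted p under 0.05 and none (0 of 10) fell. Of all 16741 fin genes tested, 19.6% were called higher and 17.0% lower in mutants. The genes *egr1*, *egr2a*, *egr3*, *fosab*, *fosl1a*, *jun*, *junbb* and *atf3* passed, and *egr2b* and *junba* did not. Every mutant fin library lay above every wild-type fin library for 9 of the 10, all but *egr2b*, against 26.0% of all tested genes. The median log2 fold change of the 10 genes was 0.75, beside -0.01 for all tested genes. These are levels in whole tissue, where more cells of a type and more RNA per cell cannot be told apart.

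**Figure D1:**
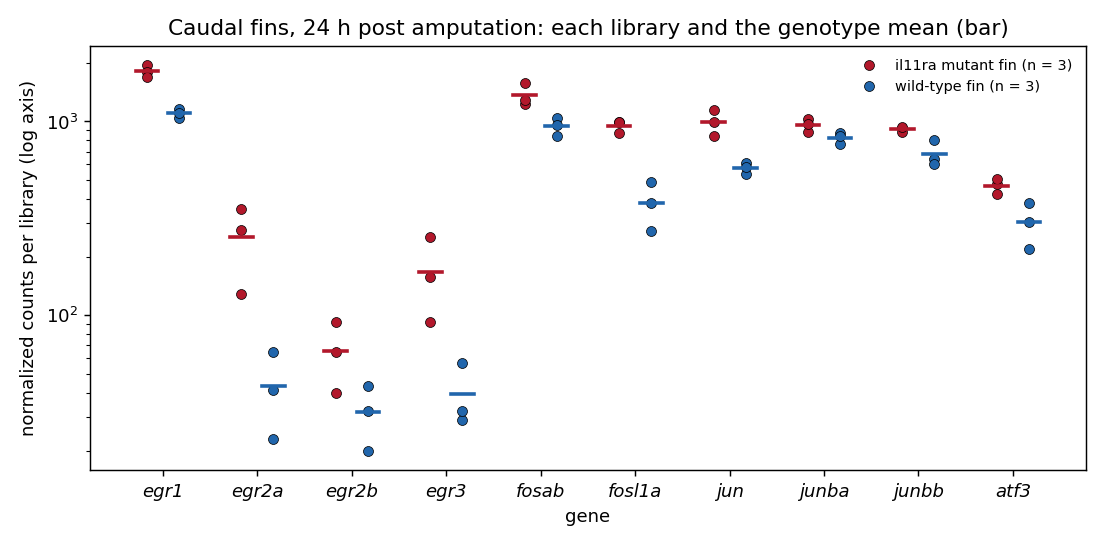
Normalized counts per library (log axis) of the 10 genes in *il11ra* mutant fins (red, n = 3) and wild-type fins (blue, n = 3), with bars at the genotype means. The red and blue points overlap for *egr2b* alone, where the lowest mutant fin had 40 and the highest wild-type fin 43, and the gap is widest on this axis for *egr2a*, *egr3* and *fosl1a*.

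Among the Egr genes, *egr1*, the family member most often used as a readout of Erk activity, was annotated on chromosome 14 (GRCz11, 21332522 to 21336385, minus strand). It had 1950, 1797 and 1696 normalized counts in mutant fins against 1038, 1160 and 1103 in wild-type fins. The libraries of each genotype lay close together, and the genotypes were far apart relative to that spread. The mean was 1814 ± 128 in mutant fins and 1100 ± 61.0 in wild-type fins (SD, n = 3 each), with a log2 fold change of 0.72 ± 0.09 (SE) and an adjusted p of 0.00115 by limma.

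The largest fold change of the 10 genes in fins was that of *egr2a* (chromosome 17, 43663504 to 43677471, minus strand), one of 2 zebrafish copies of the hindbrain and myelin regulator Egr2. Its normalized counts were 129, 353 and 277 in mutant fins, against 23, 41 and 65 in wild-type fins. Mutant fin 1 was low among the mutants and still far above the highest wild-type fin. The log2 fold change was 2.53 ± 0.45 with an adjusted p of 0.00462 by limma, a 5.88-fold ratio of means, and only 1.62% of tested fin genes had a fold change as high or higher. The other copy, *egr2b* (chromosome 12, 8483838 to 8504278, minus strand), had 40, 92 and 65 normalized counts in mutant fins against 43, 32 and 20 in wild-type fins. Mutant fin 1 fell inside the wild-type range, and the log2 fold change of 1.01 ± 0.37 did not pass (adjusted p = 0.0655 by limma). Without mutant fin 1 the log2 fold change was 1.33 with an adjusted p of 0.0272 by limma. This was the 1 alternative that passed, of 12 with *egr2b* among the tested genes. Over the 12 its adjusted p ran from 0.0272 to 0.183 by limma, the highest without wild-type fin 3. How reads shared by paralogs were counted is not given in the sources used here.

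The last Egr gene, *egr3* (chromosome 8, 50727220 to 50733508, plus strand), encodes a factor that is needed for muscle spindles in the mouse. It had 93, 253 and 157 normalized counts in mutant fins, against 29, 32 and 57 in wild-type fins. Mutant fin 1 was again the lowest mutant, and the genotypes did not overlap. The log2 fold change was 2.01 ± 0.39, with an adjusted p of 0.00632 by limma, and 2.94% of tested fin genes had a fold change as high or higher.

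Of the Fos genes, *fosl1a* (chromosome 14, 30739476 to 30747686, minus strand) encodes a zebrafish copy of Fra-1, a Fos protein without the strong activation domain of c-Fos that is found at wound edges and in migrating epithelium in mammals. It had 868, 990 and 998 normalized counts in mutant fins, against 274, 379 and 489 in wild-type fins. Even the lowest mutant fin exceeded the highest wild-type fin by far, and the mutants varied little among themselves. The log2 fold change was 1.36 ± 0.19 (adjusted p = 0.00192 by limma), a 2.50-fold ratio of means. *fosab* (chromosome 20, 46552311 to 46554440, minus strand), the c-Fos orthologue, had 1582, 1236 and 1283 normalized counts in mutant fins and 1041, 840 and 964 in wild-type fins. Mutant fin 1 was the highest mutant here, not the lowest. Its log2 fold change of 0.52 ± 0.12 passed with an adjusted p of 0.0131 by limma.

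Of the Jun genes, *jun* (chromosome 20, 15552657 to 15554606, plus strand), which encodes c-Jun, the substrate that gave Jun N-terminal kinase its name, rose most. It had 1145, 843 and 995 normalized counts in mutant fins against 614, 534 and 580 in wild-type fins, with a log2 fold change of 0.78 ± 0.12 (adjusted p = 0.00281 by limma). The genotypes were well separated, with the spread on the mutant side. The 2 copies of JunB, a Jun protein that in mammals often acts against c-Jun, changed less. *junbb* (chromosome 3, 7654655 to 7656059, minus strand) had 929, 881 and 941 normalized counts in mutant fins and 638, 603 and 804 in wild-type fins, and its log2 fold change was 0.44 ± 0.11 (adjusted p = 0.0202 by limma). *junba* (chromosome 1, 51732979 to 51734535, minus strand) had 1024, 883 and 973 normalized counts in mutant fins and 867, 765 and 844 in wild-type fins. Its genotypes did not overlap in these values, but the lowest mutant fin was close to the highest wild-type fin. Before scaling, its estimated reads were 761, 951 and 1007 in mutant fins and 766, 954 and 954 in wild-type fins, which overlap. The log2 fold change of 0.22 ± 0.09 did not pass (adjusted p = 0.0910 by limma).

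*atf3* (chromosome 20, 37794633 to 37800737, plus strand), an Atf protein of the stress response that dimerizes with Jun proteins and is a textbook marker of injured neurons, had 421, 475 and 505 normalized counts in mutant fins, against 221, 302 and 381 in wild-type fins. The genotypes stood apart by a small margin, with wild-type fin 3 nearest to the mutants. The log2 fold change was 0.66 ± 0.18 (adjusted p = 0.0259 by limma). Wild-type fin 3 lay above the wild-type mean for 9 of the 10 genes, by a median of 0.14 on the log2 scale. The share of all fin genes above it in that library is not given here, so this count is a description. Both weaker calls lay near the threshold, and each was lost in several fits that left out 1 library. *atf3* lost its call without mutant fin 2, mutant fin 3 or wild-type fin 2, at adjusted p-values of 0.0543, 0.0743 and 0.0654 by limma, within a range of 0.0112 to 0.0743 over 13 alternatives. *junbb* lost it without mutant fin 3, wild-type fin 1 or wild-type fin 2, at 0.0611, 0.0611 and 0.0668, within a range of 0.00845 to 0.0668. The other 6 called genes passed under all 13 alternatives.

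Some of these genes sat near the top of the fin table in values per base of annotated gene span, which includes introns. Divided by the annotated span of the gene in bases, no fin value exceeded 0.841 normalized counts per base (*krt91*), and 0 of 22202 genes exceeded 1. In the ventricle table, whose libraries held more reads than those of fins, 260 of 23511 genes exceeded 1, up to 387 for a mitochondrial gene. The highest fin values were 0.743 per base for *fosab*, 0.670 for *junbb*, 0.658 for *junba*, 0.587 for *jun* and 0.505 for *egr1*, which ranked 5, 7, 8, 12 and 24 among all fin genes. The other 5 genes had 0.0045 to 0.121 per base. In fins the 5 dense genes had log2 fold changes of 0.22 to 0.78 (median 0.52) and the other 5 had 0.66 to 2.53 (median 1.36). The 2 sets also differ in span, from 1405 to 3864 bases in the dense genes and from 6105 to 20441 in the other 5. The part of gene span in these fold changes was not tested. Within the ventricle table *jun*, at 1.32 per base, ranked 193.

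**Figure D2:**
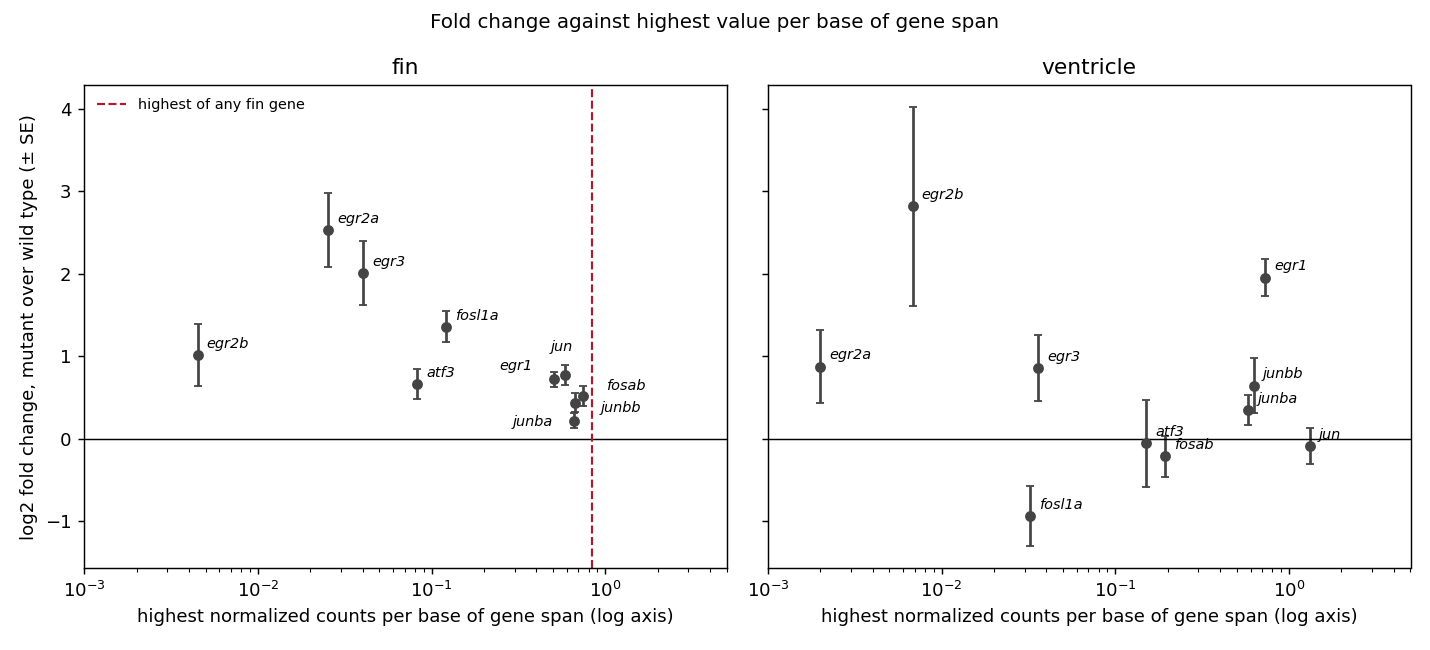
Log2 fold change (mutant over wild type, limma estimate ± SE) of each of the 10 genes against its highest normalized count per base of annotated gene span (log axis), in fins (left) and ventricles (right). In fins 5 genes crowd below the highest value of any fin gene (dashed line, 0.841) with fold changes of 0.22 to 0.78, while the ventricle panel has no such line because its genes reached 387.

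Mutant fin 1 had the fewest estimated reads on genes of all fins. In it *egr1*, *fosab*, *jun* and *junba* were the highest of the mutants (4 of the 5 dense genes), whereas 0 of the other 5 were. Wild-type fin 1 had the fewest estimated reads on genes of the wild-type fins. In that library *fosab*, *jun* and *junba* were the highest of the wild-type fins (3 of the 5), but *egr1* was the lowest. *junbb* was highest in wild-type fin 3. Of the 26 fin genes above 0.5 per base, 25 (96.2%) had their highest mutant value in mutant fin 1, against 39.1% of all tested genes, and 19 (73.1%) had their highest wild-type value in wild-type fin 1, against 37.5%. Whether reads at the same position were counted once in fins is not given in the sources used here. The part of any bound on high values in the fold changes of *junba*, *junbb*, *fosab*, *jun* and *egr1* was not tested.

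Some markers of other cells moved with the fin genotypes. The counts of calls below stand beside 19.6% called higher and 17.0% called lower of all fin genes tested. The neutrophil list had higher summed normalized counts in mutants, 2001 to 2442 in mutant fins against 562 to 948 in wild-type fins, with none of its genes at 0. Of its 5 tested entries 3 were called higher, *mpx*, *ncf1* and *il1b*. The other 2 were both entries of *mmp13a* and overlapped between genotypes. The first marker of the list, *mpx*, the neutrophil peroxidase, had 1086, 1408 and 987 in mutant fins and 233, 319 and 212 in wild-type fins. The macrophage list summed to 1459 to 1530 in mutant fins and 858 to 1187 in wild-type fins (2 of 4 called higher). Its marker *csf1ra* went the other way without a call, with means of 187 in mutant and 332 in wild-type fins (log2 fold change -0.83). *mfap4*, of the same list, overlapped between genotypes. The epicardial and fibroblast list summed to 6932 to 7225 in mutant fins and 7917 to 9861 in wild-type fins (2 of 4 tested genes called lower). The bone and fin mesenchyme list summed to 1165 to 1468 in mutant fins and 1593 to 1649 in wild-type fins. All 6 of its tested genes had negative fold changes (median -0.61), and 2 were called lower. Heat shock genes summed to 915 to 1376 in mutant fins and 971 to 1059 in wild-type fins, with 4 of 10 called higher and mutant fin 1 the lowest of all 6. Of 5 epidermal markers 4 had positive fold changes (median 0.39), of which *epcam* was called (0.39, adjusted p = 0.0429 by limma), and *krt4* overlapped between genotypes, with 2213, 1829 and 1886 in mutant fins and 2509, 1862 and 2050 in wild-type fins. The part of these cells in the rise of Egr and AP-1 genes was not tested.

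In ventricles none (0 of 17411 genes) passed at an adjusted p under 0.05 by limma, so the background was 0% and no Egr or AP-1 gene was called. At an unadjusted p under 0.05 there were 1173 genes, among them 2 of the 10, *egr1* and *fosl1a*, in opposite directions. Both mutant ventricles lay above both wild-type ventricles for 6 of the 10 genes, against 18.2% of all tested genes, and below them for 1 of the 10, *fosl1a*, against 17.1%. The 6 were the 4 Egr genes, *junba* and *junbb*. For *fosab*, *jun* and *atf3* the genotypes overlapped.

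**Figure D3:**
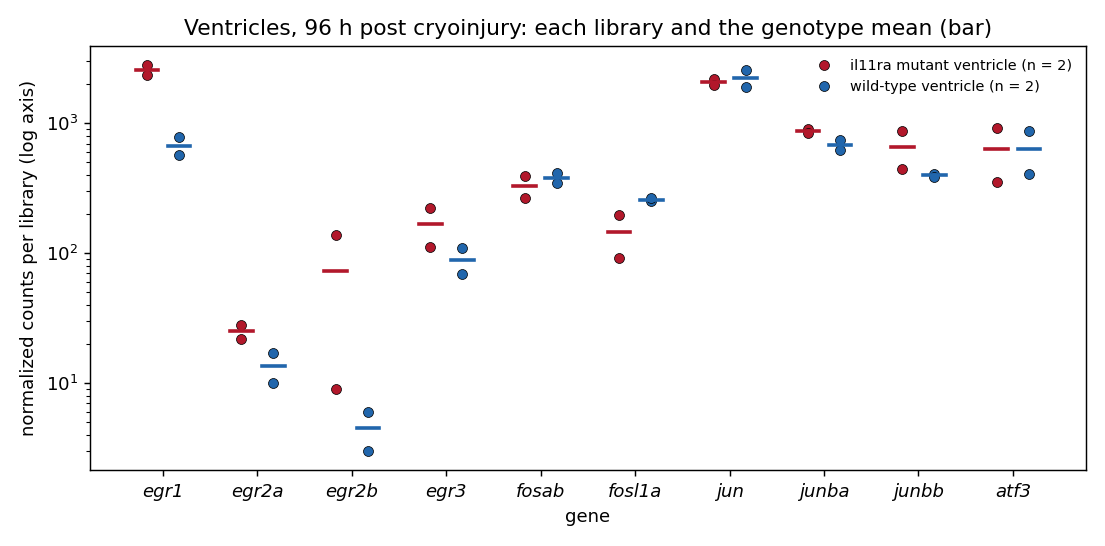
Normalized counts per library (log axis) of the 10 genes in *il11ra* mutant ventricles (red, n = 2) and wild-type ventricles (blue, n = 2), with bars at the genotype means. *egr1* stands apart with 2366 and 2806 in mutants against 566 and 781 in wild-type ventricles, *egr2b* is spread widely in mutants, and *fosl1a* is the one gene with both mutants below both wild-type libraries.

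*egr1* had 2806 and 2366 normalized counts in mutant ventricles, against 781 and 566 in wild-type ventricles. Its mean was 2586 ± 311 in mutant ventricles and 674 ± 152 in wild-type ventricles (SD, n = 2 each), a 3.84-fold ratio. The gap between genotypes was several times the spread within either of them. The log2 fold change of 1.95 ± 0.23 had an unadjusted p of 0.000135 and an adjusted p of 0.158 by limma, which did not pass, and ranked 43 of 17411 genes. It stayed between 1.72 and 2.18 over 12 alternatives, whose adjusted p-values ran from 0.104 to 1.

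The other Egr genes had fewer normalized counts than *egr1* in ventricles. *egr2b* had 138 and 9 normalized counts in mutant ventricles against 6 and 3 in wild-type ventricles. Its log2 fold change of 2.82 ± 1.21 ranked 12 of 17411 genes, but it rested on mutant ventricle 1 and had an adjusted p of 0.746 by limma, and without that library the gene dropped below the minimum mean of 10. *egr2a* had 22 and 28 in mutant ventricles and 10 and 17 in wild-type ventricles, all low values, with a log2 fold change of 0.88 ± 0.44 (adjusted p = 0.782 by limma). *egr3* had 225 and 111 in mutant ventricles and 109 and 69 in wild-type ventricles, with a log2 fold change of 0.86 ± 0.40 (adjusted p = 0.767 by limma). Mutant ventricle 2 was only just above wild-type ventricle 1 for *egr3*, and without mutant ventricle 1 the log2 fold change was 0.35.

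The Fos and Jun genes had no common direction in ventricles. *fosl1a* had 197 and 92 normalized counts in mutant ventricles, against 254 and 264 in wild-type ventricles. Both mutants were below both wild-type libraries, mutant ventricle 2 by the wider margin, and the log2 fold change was -0.94 ± 0.36 (unadjusted p = 0.0423, adjusted p = 0.715 by limma). Without mutant ventricle 1 it was -1.48, and without mutant ventricle 2 it was -0.39. *fosab* had 396 and 267 in mutant ventricles and 345 and 412 in wild-type ventricles, a log2 fold change of -0.21 ± 0.25. *jun*, at 2180 and 1993 in mutant ventricles and 2566 and 1914 in wild-type ventricles, had a log2 fold change of -0.09 ± 0.22. These 2 genes overlapped between genotypes, with a standard error as large as the estimate or larger.

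*junba* had 909 and 838 normalized counts in mutant ventricles and 628 and 745 in wild-type ventricles, with a log2 fold change of 0.35 ± 0.18. *junbb* had 881 and 443 in mutant ventricles and 411 and 388 in wild-type ventricles, with a log2 fold change of 0.64 ± 0.33 that was 0.15 without mutant ventricle 1. The means of *atf3* were nearly equal, but its libraries were not, with 915 and 355 in mutant ventricles and 867 and 405 in wild-type ventricles. One library of each genotype was high and the other low, so the log2 fold change of -0.06 ± 0.53 leaves room for a difference in either direction.

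Mutant ventricle 1 was the higher of the mutant pair for 9 of the 10 genes, all but *egr2a*, by a median of 0.39 on the log2 scale from the mutant mean. The share of all ventricle genes higher in that library is not given here, so the count is a description. Mutant ventricle 1 had a summed cardiomyocyte marker level of 438360 normalized counts, against 793290 in mutant ventricle 2 and 721920 to 842060 in wild-type ventricles. It had the highest macrophage sum, 8049 against 4699 in mutant ventricle 2 and 5757 to 5957 in wild-type ventricles. Of the macrophage markers *mpeg1.1* was higher and *mfap4* lower in both mutants, and the others overlapped between genotypes. Of 6 tested neutrophil entries 5 had negative fold changes (median -0.91). Of 5 endothelial markers 3 were lower in both mutants, against 17.1% of all ventricle genes tested. Cardiomyocyte *myl7*, a myosin light chain of the heart, had 92554 and 161400 in mutant ventricles and 203695 and 148952 in wild-type ventricles, so the tissue was as labelled in all 4 libraries. Epicardial and fibroblast markers summed to 58595 to 60650 in mutant ventricles and 36104 to 41721 in wild-type ventricles, mostly *col1a1a*, *col1a2* and *postnb*. Of the 6, 5 were higher in both mutants, against 18.2% of all ventricle genes tested. The epicardial factor gene *wt1b* averaged 124 in mutant ventricles and 259 in wild-type ventricles, with both mutants lower. Of 9 heat shock genes 8 had positive fold changes (median 0.52), although their sum was 14970 to 15469 in mutant ventricles and 16907 to 18976 in wild-type ventricles because *hspb1*, the most abundant, averaged 8966 in mutants and 13169 in wild-type ventricles. The part of tissue composition in the Egr and AP-1 values was not tested.

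The genotype effect was then compared between the tissues, as the fold change in fins minus the fold change in ventricles, over 14520 genes tested in both. Tissue, time after injury (24 or 96 hours), type of injury and animals per library changed together. Their parts in a difference cannot be told apart. It differed for 3 of the 10 genes at an adjusted p under 0.05 by limma, against 14.1% of all genes. For *egr1* the fold change was lower in fins (0.72) than in ventricles (1.95), a difference of -1.23 ± 0.21 (adjusted p = 0.00766 by limma). Fins and ventricles shared an estimate of spread per gene in this fit. The standard error of the *egr1* difference (0.21) was therefore below that of its ventricle fold change alone (0.23). P-values of the difference rest on equal spread in both tissues. For *fosl1a* it was higher in fins (1.36) than in ventricles (-0.94), a difference of 2.29 ± 0.42 (adjusted p = 0.0101 by limma). Here the genotypes were apart in both tissues, in opposite directions. For *jun* it was higher in fins (0.78) than in ventricles (-0.09), a difference of 0.87 ± 0.22 (adjusted p = 0.0330 by limma).

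*egr1* and *fosl1a* kept these calls over all 17 alternatives, with adjusted p-values of 0.00614 to 0.0227 and 0.00313 to 0.0398. *jun* lost its call in 7 of the 10 fits that left out 1 library, at adjusted p-values up to 0.123, namely without mutant fin 1 or 3, any of the 3 wild-type fins, mutant ventricle 2 or wild-type ventricle 1. For the other 7 genes the difference did not pass, and it was largest for *egr2b* (-1.80 ± 1.25, adjusted p = 0.341) and *egr2a* (1.65 ± 0.70, adjusted p = 0.129 by limma). Left-out ventricle libraries brought in 3 more calls. Without mutant ventricle 1 the difference for *fosab* was 1.02 (adjusted p = 0.0247 by limma), within a range of 0.0247 to 0.206. Without mutant ventricle 2 it was -3.70 for *egr2b* (adjusted p = 0.0109, range 0.0109 to 0.555) and -0.70 for *junbb* (adjusted p = 0.0370, range 0.0370 to 0.896). *egr1*, *jun*, *fosab* and both JunB genes lie near the highest density of the fin table and not of the ventricle table. Whether this affected the fin side of their differences was not tested.

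**Figure D4:**
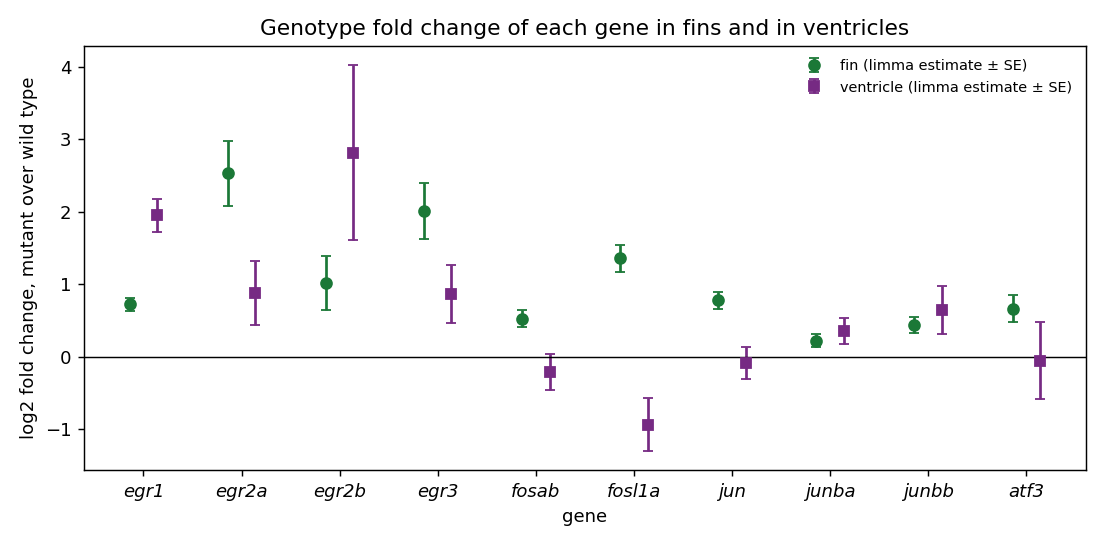
Log2 fold change (mutant over wild type, limma estimate with SE bars) of each of the 10 genes in fins (circles, 3 libraries per genotype) and ventricles (squares, 2 per genotype). All 10 fin estimates are above 0, ventricle estimates lie between -0.94 and 2.82, and the symbols are furthest apart relative to their bars for *egr1* and *fosl1a*.

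Ratios of 2 genes within a library do not depend on its size factor. The ratio of *fosl1a* to *egr1* was 0.445, 0.551 and 0.588 in mutant fins and 0.264, 0.327 and 0.443 in wild-type fins. In ventricles it was 0.0702 and 0.0389 in mutants and 0.325 and 0.466 in wild-type libraries. The ratio was thus lower in both mutant ventricles, and in fins the lowest mutant was just above the highest wild type. The ratio of *egr1* to *jun* ran from 1.703 to 2.13 in mutant fins and from 1.69 to 2.17 in wild-type fins, which overlap, and 1.29 and 1.19 in mutant ventricles and 0.304 and 0.296 in wild-type ventricles, which do not.

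Over the 10 libraries, after each tissue's mean was subtracted, the genes most like *egr1* were *nptna* (Pearson's r = 0.970), *sox4b* (0.957), *ier2a* (0.956), *si:dkey-27i16.2* (0.951) and *ier2b* (0.948), out of 14520 genes. All genes of a library share its genotype and its size factor, so this is a description. *ier2a* and *ier2b* are immediate early genes themselves. *ier2a* had 593, 526 and 525 normalized counts in mutant fins against 343, 367 and 415 in wild-type fins, and 566 and 672 in mutant ventricles against 334 and 261 in wild-type ventricles. *nptna*, a copy of the cell adhesion gene neuroplastin, had 51, 81 and 67 in mutant fins against 31, 20 and 22 in wild-type fins, and 110 and 70 in mutant ventricles against 5 and 4 in wild-type ventricles. Of the other 9 Egr and AP-1 genes, *junba* (0.766), *egr2b* (0.764) and *junbb* (0.751) were most like *egr1*. Least like it over both tissues together were *fosab* (0.0882) and *fosl1a* (-0.0481). In fins both were higher in every mutant than in any wild-type library, as *egr1* was. In ventricles *fosab* overlapped between genotypes and *fosl1a* was lower in both mutants, opposite to *egr1*.

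Other genes of the 2 families gave a mixed picture in fins. Of 18 listed, 11 were tested, 5 rose and 2 fell, against 19.6% and 17.0% of all fin genes, with a median log2 fold change of 0.43 beside -0.01 for all genes. *fosb*, a Fos gene, had 673, 781 and 813 normalized counts in mutant fins against 169, 294 and 448 in wild-type fins (log2 fold change 1.42 ± 0.30, adjusted p = 0.00922 by limma). *jdp2b*, whose product dimerizes with Jun and represses AP-1 sites, had 690, 666 and 662 in mutant fins against 262, 303 and 380 in wild-type fins (log2 fold change 1.11). *batf3*, a Jun partner of immune cells, had 17, 59 and 27 in mutant fins and 9, 5 and 7 in wild-type fins, and *maff*, a small Maf protein, 327, 293 and 306 in mutant fins and 155, 154 and 214 in wild-type fins. The 2 that fell were *fosl2*, which encodes Fra-2, with 757, 779 and 795 in mutant fins against 1098, 1005 and 1137 in wild-type fins, and *atf7a*, with 208, 203 and 193 in mutant fins against 285, 319 and 298 in wild-type fins. Fos-type genes thus moved in both directions in the same fins.

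In ventricles 12 of these 18 genes were tested and 0 passed. At an unadjusted p under 0.05 by limma there were 0, against 1173 of all 17411 ventricle genes. *fosl2* had 560 and 370 normalized counts in mutant ventricles and 638 and 623 in wild-type ventricles, and *fosl1b*, the paralog of *fosl1a*, 43 and 25 in mutant ventricles and 22 and 18 in wild-type ventricles.

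Most immediate early genes outside these families rose in fins. Of 44 tested, 35 rose and 3 fell, against 19.6% and 17.0% of all fin genes, and the median log2 fold change was 0.56. This list, like the other related lists, was chosen with earlier results of these data known, so its counts are a description. The largest rises were those of *rgs2*, a regulator of G protein signalling, with 340, 330 and 333 normalized counts in mutant fins against 65, 48 and 43 in wild-type fins (log2 fold change 2.68 ± 0.16, adjusted p = 0.000128 by limma), and of *nr4a2b*, an orphan nuclear receptor gene, with 135, 115 and 116 in mutant fins against 16, 32 and 35 in wild-type fins. *gadd45aa*, a growth arrest gene, had 214, 219 and 223 in mutant fins and 48, 53 and 53 in wild-type fins, and *csrnp1a*, which encodes a nuclear protein rich in cysteine and serine, 203, 124 and 110 in mutant fins and 33, 30 and 59 in wild-type fins. Those that fell were *hbegfb*, a ligand of the Egf receptor, *socs3b*, the feedback inhibitor of Jak and Stat signalling, and *ier5l*. *socs3b* had 303, 532 and 425 in mutant fins against 549, 633 and 648 in wild-type fins.

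In ventricles none (0 of 44) of the tested genes on this list passed, with 26 positive and 18 negative fold changes. At an unadjusted p under 0.05 by limma there were 18 of the 44, against 1173 of all 17411 ventricle genes. *socs3a* had 2631 and 2804 normalized counts in mutant ventricles against 6000 and 8417 in wild-type ventricles, a log2 fold change of -1.39 ± 0.24 (adjusted p = 0.295 by limma), while in fins it was 1194, 957 and 1114 in mutants against 756, 655 and 789 in wild-type libraries. *socs3a* thus moved as *fosl1a* did, up in mutant fins and, without a call, down in mutant ventricles, and opposite to *egr1* in ventricles.

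**Figure D5:**
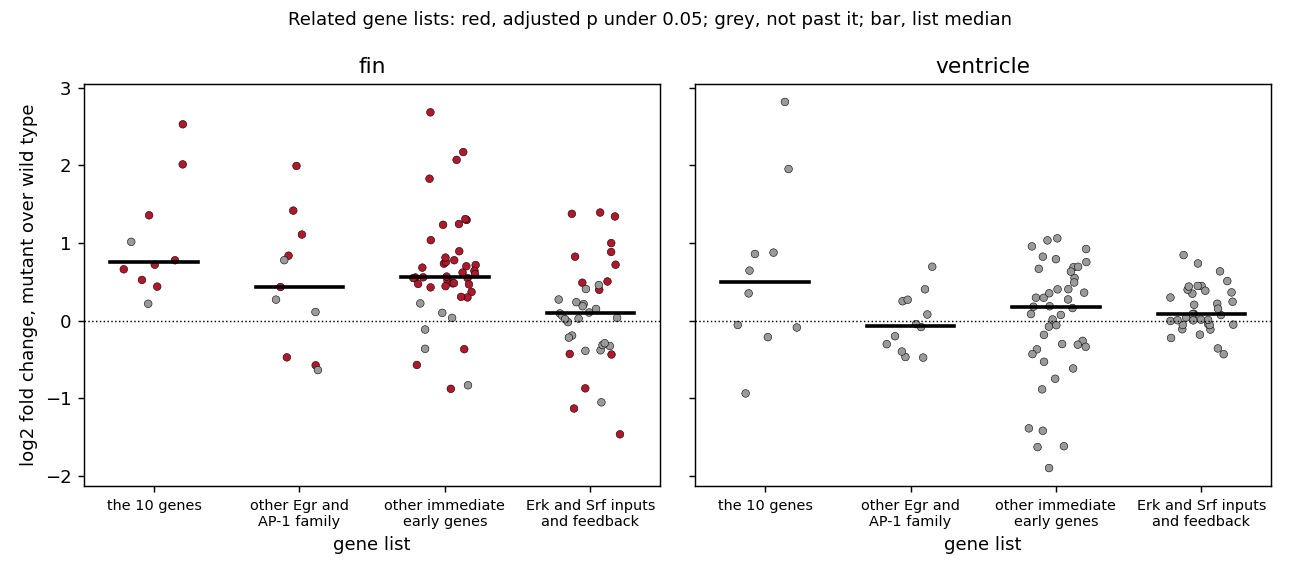
Log2 fold changes (mutant over wild type) of the 10 genes and of 3 related lists in fins (left) and ventricles (right), one point per tested gene, red where the adjusted p was under 0.05, with bars at the list medians. Fin medians are 0.75 for the 10 genes, 0.43 for other family members, 0.56 for other immediate early genes and 0.09 for Erk and Srf genes, and no ventricle point is red.

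Genes upstream of Egr and AP-1, or in feedback on them, did not all move in the same direction. Of 37 tested in fins, 10 rose and 5 fell (median 0.09), against 19.6% and 17.0% of all fin genes. The genes that rose with the largest fold changes were *spry1*, *spry4*, *dusp4* and *nab1a*. *spry4*, an inhibitor of Erk activation by growth factors, had 463, 440 and 492 normalized counts in mutant fins against 125, 183 and 248 in wild-type fins (log2 fold change 1.38 ± 0.22, adjusted p = 0.00310 by limma), and its relative *spry1* 114, 62 and 112 in mutant fins against 28, 38 and 39 in wild-type fins. *dusp4*, a phosphatase of MAP kinases, had 381, 184 and 296 in mutant fins against 87, 96 and 150 in wild-type fins, and *nab1a*, a corepressor that binds Egr proteins, 27, 32 and 31 in mutant fins against 18, 12 and 14 in wild-type fins. *spry2*, *dusp5* and *dusp6* were called higher too, with log2 fold changes of 0.82, 0.72 and 0.88. *dusp2* (0.46), *spred2a* (-0.38) and *spred2b* (-0.33), of the same list, were not called. Kinases and Srf factors were found in both directions. *raf1b*, a Raf kinase gene, *map2k1*, a Mek gene, and *mrtfab*, an Srf coactivator, rose by 0.50, 0.40 and 0.49 on the log2 scale. *srfa*, a gene for serum response factor, had 50, 60 and 67 in mutant fins against 109, 156 and 128 in wild-type fins (log2 fold change -1.13 ± 0.19, adjusted p = 0.00377 by limma). *mrtfba*, another Srf coactivator, *mapk8b*, a Jnk gene, and *map2k2b*, another Mek gene, had log2 fold changes of -0.87, -1.46 and -0.44.

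In ventricles 36 genes of this list were tested and 0 passed. Against 1173 of all 17411 ventricle genes, 1 of the 36 had an unadjusted p under 0.05 by limma. It was *nab2*, another Egr corepressor and itself an Egr target in mammals, with 72 and 51 normalized counts in mutant ventricles and 37 and 35 in wild-type ventricles (log2 fold change 0.74 ± 0.30, adjusted p = 0.733 by limma). *map2k1* had 502 and 453 in mutant ventricles and 617 and 606 in wild-type ventricles.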

How the data were processed

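Libraries were grouped by the genotype, tissue and time in their labels. The authors made stranded mRNA libraries. Per the labels, their processing notes name Trimmomatic 0.39, STAR 2.7.3a, featureCounts 1.6.5, DESeq2 1.26 and GRCz11. The deposited unit is a normalized signal, namely reads on each gene over a size factor that the authors set within the tissue, rounded to whole numbers. Whole reads were not recovered, because where 1 read is worth less than 1 unit different read numbers round to one value.

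Genes with a mean of at least 10 in a tissue were fitted with limma 3.58.1 (R 4.3.3) on log2(value + 1), mutant against wild type, with a mean-variance trend. P-values were adjusted over all tested genes by the Benjamini-Hochberg method (threshold 0.05), and the code was tested on simulated data. The difference between tissues was a contrast over all 10 libraries, with a spread per gene shared by both tissues. Named outside the 10 genes were, from each related list, up to 4 genes per direction in fins with the largest fold change among called genes without overlap, 2 in ventricles with the smallest p, the 5 genes most like *egr1* and the first marker of some marker lists. *raf1b*, *mrtfab*, *spry2*, *dusp2*, *dusp5*, *dusp6*, *spred2a*, *spred2b*, *csf1ra*, *mfap4*, *ncf1*, *il1b*, *mmp13a*, *epcam*, *wt1b*, *col1a1a*, *col1a2*, *postnb* and *hspb1* were named after their values were seen. Genes and lists were chosen with earlier results of these data known. Symbols that differ between the tables were matched by gene ID. Python 3.11.15 with pandas 2.3.3 and matplotlib 3.10.9 was used for tables and figures. Animals behind same-numbered libraries are not stated to be related, so p-values measure the spread between these libraries.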

Additional observations from a re-analysis of the deposited data

Results flagged for a closer look

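The genotype effect differed between fins and ventricles (fold change in fins minus fold change in ventricles, log2, limma, adjusted p under 0.05) for 12 of the 38 genes tested for it among those that the rule named. Over all genes the share was 14.1%, but apart from the 10 Egr and AP-1 genes the named ones were chosen for large effects in 1 tissue or for likeness to *egr1*, so the count is a description. Of the Egr and AP-1 genes described, these were *egr1* (-1.23), *fosl1a* (2.29) and *jun* (0.87). *csrnp1a* had the largest difference (3.25), with log2 fold changes of 1.83 in fins and -1.42 in ventricles, where it had 144 and 125 normalized counts in mutants and 488 and 266 in wild-type libraries. *socs3a* had 1.95 (adjusted p = 0.00215 by limma), with 0.57 in fins and -1.39 in ventricles. The difference was also positive for *rgs2* (2.28), *gadd45aa* (1.38), *maff* (1.14), *jdp2b* (1.03) and *map2k1* (0.75), and negative for *nptna* (-2.61) and *srfa* (-1.64). Ventricles had 2 libraries per genotype, and none of these genes was called in ventricles alone. Tissue cannot be told apart from time after injury or type of injury in these differences.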

How the results depend on the processing

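In fins 8 of the 10 genes were called under 6 settings (pseudocounts of 0.5 and 10, no filter, a minimum mean of 50, upper-quartile scaling, robust moderation), and 6 to 9 with 1 library left out. Genes called lower in mutant fins numbered 2853 and 1656 to 2524 with 1 library left out. Over all 16741 tested genes same-numbered fins did not deviate together (correlations of 0.03, 0.09 and -0.08). Of the 10 genes, *egr2a*, *fosl1a*, *jun*, *junba* and *atf3* deviated from the genotype mean with the same sign in every same-numbered pair. *egr1* had opposite signs in every pair, and the others were mixed. *junba* deviated by 0.096, -0.118 and 0.022 in mutant fins 1 to 3 and by 0.073, -0.107 and 0.034 in wild-type fins 1 to 3. With the replicate block *junba* passed (0.22, adjusted p = 0.0393 by limma), which made 9 calls of 10 in fins, and the tissue difference had 524 genes higher in fins and 278 higher in ventricles, against 1040 and 1001 without it. Same-numbered ventricles correlated at -0.19, and with the pairing crossed 0 genes were called. With 1 library left out, the tissue difference had 452 to 1353 genes higher in fins and 264 to 1747 higher in ventricles, and of the 10 genes 1 to 3 and 1 to 3, where the lone ventricle library of a genotype was assumed to vary like the others. With 1 library left out, ventricle log2 fold changes took both signs for *fosab* (-0.50 to 0.071, above 0 without mutant ventricle 2), *jun* (-0.30 to 0.12, above 0 without wild-type ventricle 1) and *atf3* (-0.74 to 0.63, above 0 without mutant ventricle 2 or, at 0.49, wild-type ventricle 1), and so did the difference for *junbb* (-0.70 to 0.29, above 0 without mutant ventricle 1). The cause was not tested. Low values limit *egr2a* and *egr2b* in ventricles, which had fewer than 30 normalized counts in at least 3 of 4 libraries.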
